A study of Mus musculus with 9 samples.

Results

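Stem and progenitor identity was read through 9 genes, Hlf, Cd34, Kit, Flt3, Mecom, Ly6a, Erg, Lmo2 and Tal1, out of the 21159 mouse genes in the table of raw counts. The genes were chosen by name, and each symbol matched a single Ensembl identifier. They were measured in 9 libraries of QuantSeq, a 3′ tag method in which each read comes from near the end of a transcript, so that a count does not grow with transcript length. All 3 groups of 3 libraries came from lineage-depleted marrow of mice with floxed Runx2 and a tamoxifen-inducible Cre (Runx2fl/fl CreErt2tg/+). The protocol describes marrow that was given a retrovirus for KMT2A-MLLT1-eGFP, a leukaemia fusion also called MLL-ENL. Such marrow was cultured for 24 hours with IL-3, IL-6 and stem cell factor and plated in methylcellulose, with replating every 7 days. Runx2ko cells were transformed cells in suspension that received 4-hydroxytamoxifen (4-OHT), the drug that activates the Cre, at 400 nM for 24 hours. Runx2wt cells were transformed cells with the same alleles that received ethanol. BM progenitor cells were untreated, and their RNA was taken before the first replating. Whether these BM progenitor cells carried the fusion is not stated in the labels. Cre activity and 4-OHT go together with the Runx2ko label, and passage and culture form differ between transformed and BM progenitor cells, so these cannot be told apart from the named difference. Replicates are labelled as biological and independent.

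The 9 genes encode factors and surface proteins by which early blood cells are recognised. A small set of transcription factors, among them Erg, Tal1, Lmo2 and their partners Fli1, Gata2, Runx1 and Lyl1, bind regulatory DNA of blood stem and progenitor cells together. Hlf and Mecom are most active in the stem cell compartment and are lost as cells differentiate. Cd34 and Ly6a (Sca-1) are surface antigens used to sort these cells, and Kit and Flt3 are receptor tyrosine kinases whose ligands keep stem cells and multipotent, lymphoid-primed progenitors alive and dividing. In leukaemia driven by KMT2A fusions, the fusion protein keeps progenitor genes of the HOXA and MEIS1 group active.

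Library totals ran from 3118594 to 5348177 counts, and mitochondrial genes took 1.67% to 2.15% of them. Runx2ko replicate 1 stood apart: across genes its log2 CPM (counts scaled to a common library total) correlated at 0.793 to 0.816 with the other transformed libraries. It also differed in the sums of marker genes of mature lineages. Mast cell and basophil markers (13 genes) summed to 4244 CPM in Runx2ko replicate 1 and 67.1 to 508 CPM in the other transformed libraries, against 1022 to 1186 CPM in BM progenitor. Megakaryocyte markers (5 genes) summed to 763 CPM in that library, and to 6.19 to 29.1 CPM in the other transformed libraries and 69.8 to 72.0 CPM in BM progenitor. Each result below is therefore given with and without this library where that changes it. Runx2 itself was at 20.9, 119.6 and 134 CPM in Runx2ko libraries and 159, 178 and 131 CPM in Runx2wt, against 53.1, 46.5 and 58.6 CPM in BM progenitor. Runx2ko replicates 2 and 3 thus lay within or just below the Runx2wt range. The floxed exon is not named in the labels, so tags at the 3′ end do not check the deletion. The extraction protocol names T-ALL cells, which no other label does. Of 6 T cell markers, Lck was at 3.09 to 22.5 CPM over the 9 libraries and Cd3e, which defines the lineage, at 0 to 0.379 CPM. The 6 markers summed to 25.4, 33.4 and 9.18 CPM in Runx2ko libraries and 8.56 to 9.99 CPM in Runx2wt, against 5.45 to 10.2 CPM in BM progenitor.

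Of the 9 genes, 8 passed the filter on low counts (edgeR's filterByExpr) and Mecom did not. Changes are log2 fold changes from edgeR's quasi-likelihood test over all 9 libraries, with a standard error (SE) and a p adjusted by Benjamini-Hochberg over the 11196 genes tested. A gene passed at an adjusted p under 0.05. In Runx2wt against BM progenitor, Erg rose and Hlf, Cd34 and Flt3 fell, which is 1 higher and 3 lower of 8, where 8.28% of all tested genes passed as higher and 5.23% as lower. The groups did not overlap for 6 of the 8 in the lower direction and for Erg and Lmo2 in the higher one; over all tested genes such separation was seen for 24.5% and 24.8%. The median log2 fold change was -2.63 over the 8 genes and 0.01 over all tested genes. In Runx2ko against BM progenitor, Erg rose and Hlf and Flt3 fell, beside 10.0% of all tested genes higher and 7.14% lower, and the median was -0.01 (0.07 over all tested genes). There the groups did not overlap for Hlf, Cd34 and Flt3 in the lower direction and for Erg in the higher one, beside 18.9% and 19.5% of all tested genes. Between Runx2ko and Runx2wt none of the 8 passed and neither did any of the 11196 genes (0%). At an unadjusted p under 0.05 there were 3 of the 8 genes (Kit, Ly6a and Tal1) and 886 of all genes. DESeq2 called 46 genes, none of them among the 9, and limma-voom called 0.

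Without Runx2ko replicate 1, which leaves that arm with 2 libraries, more of the 8 passed. In Runx2wt against BM progenitor, 2 were higher and 5 lower, where 15.9% and 12.1% of the 11636 genes then tested passed. In Runx2ko against BM progenitor, 2 were higher and 4 lower, beside 15.9% and 12.6% of all genes. The median of the 8 in Runx2ko against BM progenitor was then -2.20, where it had been -0.01 over all libraries, and in Runx2ko against Runx2wt it was 0.07, where it had been 0.73. Between Runx2ko and Runx2wt the count stayed at 0, and 0.0172% of all genes passed as higher and 0.0258% as lower. BM progenitor libraries also bore on the counts. Each fit without 1 of them left Hlf as the sole member that fell in Runx2wt, with none higher, as did the fit without Runx2wt replicate 2, and each fit without Runx2wt replicate 1 or 3 also lost the rise of Erg. The fit without Runx2ko replicate 3 gave 5 members lower in Runx2wt. In Runx2ko, 1 member fell without BM progenitor replicate 2 and without replicate 3. In bulk RNA, fewer cells of a type and less RNA per cell cannot be told apart, and this holds for every level below.

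**Figure D1:**
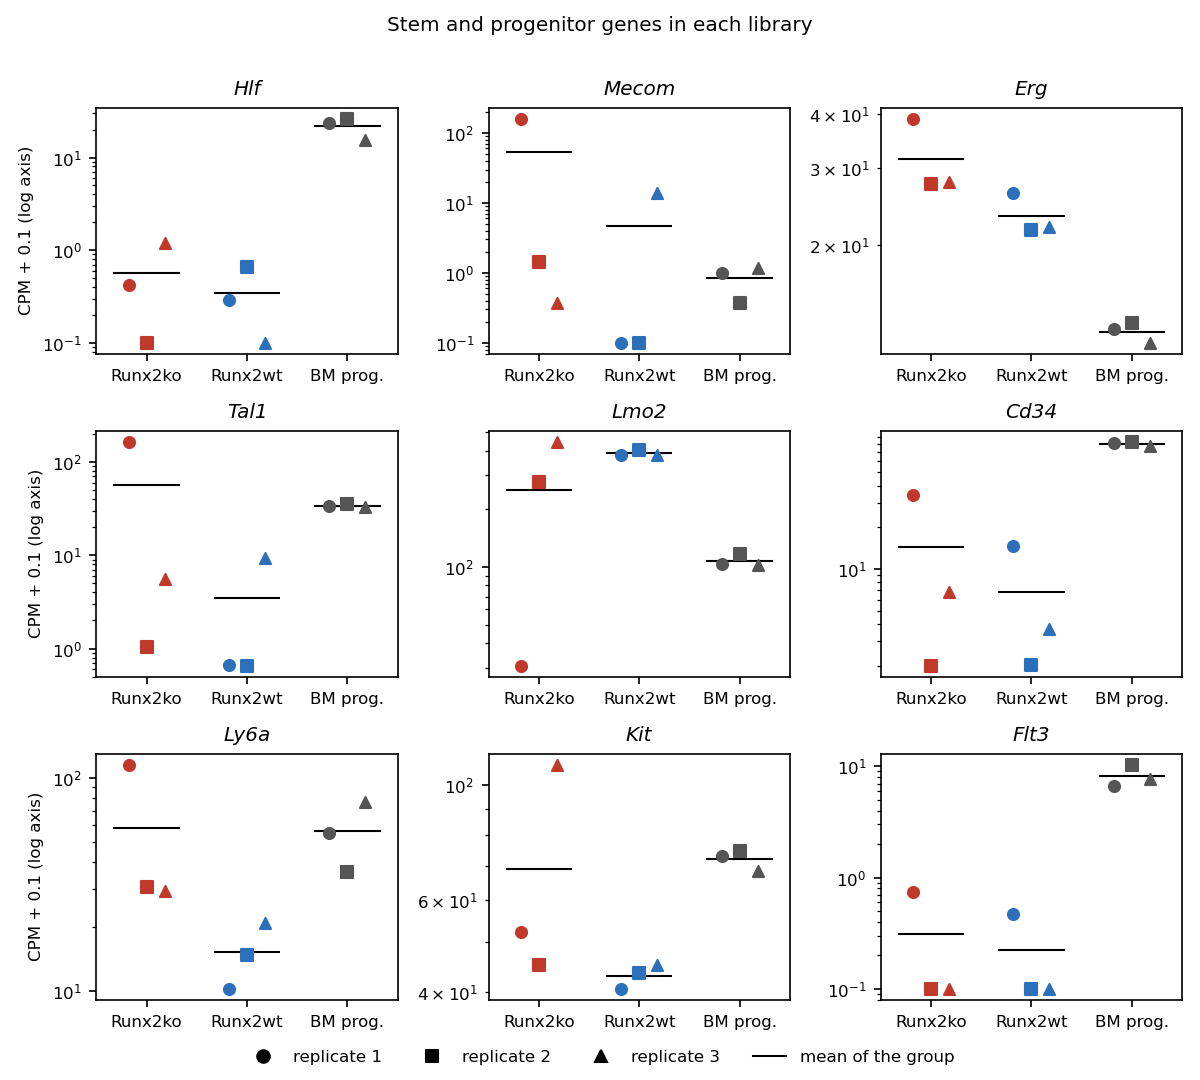
CPM plus 0.1 on a log axis for each of the 9 genes (1 panel each), with 1 point per library, shaped by replicate number, and a line at the mean of each group of 3. Hlf, Cd34 and Flt3 were lower in all 6 transformed libraries than in BM progenitor, Erg was higher in all 6, and Runx2ko replicate 1 (circle at the left) was far from the other transformed libraries for Mecom, Tal1, Lmo2 and Ly6a.

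Hlf, a PAR-type basic leucine zipper factor and among the narrowest transcriptional markers of blood stem cells, was almost lost from the transformed cells. Its counts were 1, 0 and 4 in Runx2ko and 1, 2 and 0 in Runx2wt, against 129, 97 and 72 in BM progenitor. As CPM these were 0.321, 0 and 1.08 in Runx2ko, 0.188, 0.552 and 0 in Runx2wt, and 23.5, 26.1 and 15.2 in BM progenitor. All 6 transformed libraries were near 0 and none came close to a BM progenitor library. Summed over each group, Hlf was 51.7-fold lower in Runx2ko than in BM progenitor (95% exact interval 21.9 to 160.3) and 89.4-fold lower in Runx2wt than in BM progenitor (30.3 to 436), intervals that cover counting error only. The log2 fold change was -5.55 in Runx2ko (SE 0.84, edgeR adjusted p = 0.00538) and -6.32 in Runx2wt (SE 0.89, edgeR adjusted p = 0.00428), each against BM progenitor. Both passed in 16 of 16 alternative settings. Runx2ko against Runx2wt gave 0.78 (SE 1.15, edgeR adjusted p = 0.887), on 5 and 3 counts in all. The gene lies at GRCm38 chr11:90336536-90390895 on the minus strand. Its promoter window, 250 bases before to 50 after a start site (RefSeq, GRCm38.p6), is shown because this was the member with the deepest loss. It was searched on both strands for 4 motifs. The letters TGTGGT stand for RUNX factors and the letters AGATAA for factors of the GATA class. The E-box, which Tal1 and its E protein partners bind, was searched as CAGNTG with any base at N. The ETS class, to which Erg belongs, was searched as GGAAGT. No 2 of these motifs overlap in the windows shown. Of 32851 windows of this length, 16.8% hold the RUNX letters, 11.2% GATA, 51.4% the E-box and 23.8% ETS. The capitals mark the only match, an E-box.
Hlf chr11:90390868-90391167, minus strand: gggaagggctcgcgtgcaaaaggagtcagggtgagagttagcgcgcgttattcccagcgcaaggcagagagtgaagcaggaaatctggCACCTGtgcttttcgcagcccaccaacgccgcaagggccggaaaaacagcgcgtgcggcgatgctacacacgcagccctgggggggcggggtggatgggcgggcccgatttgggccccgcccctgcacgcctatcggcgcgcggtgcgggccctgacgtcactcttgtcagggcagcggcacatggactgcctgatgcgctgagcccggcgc

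Mecom, which encodes the zinc finger factor EVI1 and is needed to keep stem cells, was carried by single libraries. It was at 159 CPM in Runx2ko replicate 1, and at 1.33 and 0.270 CPM in the other Runx2ko libraries. In Runx2wt it was at 0, 0 and 13.6 CPM, and in BM progenitor at 0.909, 0.269 and 1.06 CPM. High values thus stood in Runx2ko replicate 1 (496 counts) and Runx2wt replicate 3 (49 counts), and the other 7 libraries held 0 to 7 counts. The gene was tested only where the filter on low counts let it in. With no such filter, its log2 fold change against BM progenitor was 6.02 in Runx2ko (edgeR adjusted p = 0.0598) and 2.45 in Runx2wt (edgeR adjusted p = 0.501), and it was 3.58 in Runx2ko against Runx2wt (edgeR adjusted p = 0.720). In the 8 alternatives that tested it, the lowest adjusted p was 0.0598. Mecom lies at chr3:29951296-30548008 on the minus strand, and an antisense gene that overlaps its exons, Mecomos, had 2 counts over the 9 libraries.

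Erg, an ETS family factor that stem cells need to persist, was higher in all 6 transformed libraries than in BM progenitor. It was at 38.9, 27.5 and 27.8 CPM in Runx2ko libraries and 26.3, 21.5 and 21.9 CPM in Runx2wt, against 12.7, 13.2 and 11.8 CPM in BM progenitor. The 3 groups were stepped, with every Runx2ko library above every Runx2wt library and all of these above BM progenitor. Against BM progenitor, Erg rose by 1.32 log2 units in Runx2ko (SE 0.22, edgeR adjusted p = 0.0075) and by 0.89 in Runx2wt (SE 0.22, edgeR adjusted p = 0.0326). The rise in Runx2ko passed in 16 of 16 alternatives, whereas that in Runx2wt passed in 8 of 16, with adjusted p from 0.00959 to 0.118. Runx2ko against Runx2wt gave 0.43 (SE 0.22, edgeR adjusted p = 0.658), and the step between these groups did not pass. Separation of that kind held for Ly6a, Erg and, by a near-tie (44.9 CPM in the lowest Runx2ko and the highest Runx2wt library), Kit, all higher in Runx2ko, beside 4.93% of all tested genes in that direction and 4.79% in the other, where no member stood. Erg is also an endothelial factor. Of 4 endothelial markers, Cdh5 was at 0 to 1.14 CPM, Kdr at 0 to 3.41 and Emcn at 0 to 1.90 over the 9 libraries. Pecam1, which myeloid cells also express, was at 291 to 877 CPM in Runx2ko, 227 to 299 CPM in Runx2wt and 106 to 147 CPM in BM progenitor. The gene lies at chr16:95359169-95586593 on the minus strand.

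Tal1, a basic helix-loop-helix factor of stem cells that stays on in the erythroid, megakaryocyte and mast cell lineages, differed widely between replicates. It was at 164, 0.948 and 5.40 CPM in Runx2ko libraries and 0.563, 0.552 and 9.15 CPM in Runx2wt, against 34.0, 34.9 and 32.6 CPM in BM progenitor. Runx2ko replicate 1 was above every BM progenitor library and the other 5 transformed libraries were below all of them. The log2 fold changes, none of which passed, were 0.74 in Runx2ko (SE 1.36, edgeR adjusted p = 0.742) and -3.36 in Runx2wt (SE 1.60, edgeR adjusted p = 0.182), each against BM progenitor. Runx2ko against Runx2wt gave 4.10 (SE 1.63, edgeR adjusted p = 0.584). With Runx2ko replicate 1 left out, Tal1 fell in both transformed groups against BM progenitor, by 3.50 log2 units in Runx2ko (edgeR adjusted p = 0.0169) and by 3.38 in Runx2wt (edgeR adjusted p = 0.00891). Runx2ko against Runx2wt was then -0.12. The high Tal1 value went with the high mast cell and megakaryocyte sums of the same library. Erythroid markers (6 genes) summed there to 798 CPM, of which Hbb-bt was 769.6 CPM and Klf1 and Epor were under 2 CPM, against 1.13 to 33.6 CPM in the other transformed libraries and 19.1 to 25.1 CPM in BM progenitor. The part of these lineages in the Tal1 result was not tested. Tal1 lies at chr4:115056426-115071755 on the plus strand. Its window at the outermost start is shown because it holds a GATA match, the first stretch of capitals, and an E-box, the last.
Tal1 chr4:115056176-115056475, plus strand: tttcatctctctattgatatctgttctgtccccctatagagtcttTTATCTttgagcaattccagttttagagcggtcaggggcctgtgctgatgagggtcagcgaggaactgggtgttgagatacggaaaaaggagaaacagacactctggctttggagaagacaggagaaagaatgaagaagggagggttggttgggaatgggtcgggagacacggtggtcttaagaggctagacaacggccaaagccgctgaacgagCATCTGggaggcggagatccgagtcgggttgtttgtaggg

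Lmo2, a LIM-only protein that bridges Tal1 to GATA factors and Ldb1 without binding DNA itself, was high in 5 of the 6 transformed libraries. It was at 30.5, 275 and 445 CPM in Runx2ko libraries and 379, 402 and 381 CPM in Runx2wt, against 103, 116 and 102 CPM in BM progenitor. The sole transformed library below BM progenitor was Runx2ko replicate 1, which had the lowest value of all 9. The log2 fold change against BM progenitor was 1.22 in Runx2ko (SE 0.66, edgeR adjusted p = 0.227) and 1.85 in Runx2wt (SE 0.67, edgeR adjusted p = 0.0928). Without Runx2ko replicate 1, Lmo2 rose in both, by 1.74 in Runx2ko (edgeR adjusted p = 0.000181) and by 1.85 in Runx2wt (edgeR adjusted p = 6.24e-05). The value for Runx2wt did not move, as the left-out library is not in that group; the shared estimate of the spread did. Runx2ko against Runx2wt gave -0.63 (SE 0.65, edgeR adjusted p = 0.842). In the 8 libraries without Runx2ko replicate 1, Lmo2 went with Erg across libraries (Pearson r of log2 CPM 0.930), and over all 9 the r was 0.098. Such an r rests mostly on the difference between transformed and BM progenitor cells. Lmo2 lies at chr2:103957986-103981878 on the plus strand.

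Cd34, the sialomucin antigen by which progenitors are sorted, was lower in all 6 transformed libraries. It was at 34.4, 1.90 and 6.75 CPM in Runx2ko libraries and 14.6, 1.93 and 3.61 CPM in Runx2wt, against 80.7, 82.8 and 76.6 CPM in BM progenitor. Levels spread widely among the transformed libraries, with replicate 1 the highest of both groups, while BM progenitor libraries lay close together. Cd34 fell by 3.51 log2 units in Runx2wt (SE 0.95, edgeR adjusted p = 0.0402) against BM progenitor, a call made in 11 of 16 alternatives, with adjusted p of up to 0.136 without Runx2wt replicate 2. In Runx2ko against BM progenitor it was at -2.52 (SE 0.91, edgeR adjusted p = 0.0844), and it passed in 6 of 16 alternatives. Among them were DESeq2 (DESeq2 adjusted p = 0.0179) and limma-voom (limma-voom adjusted p = 0.0121), both over all 9 libraries. Without Runx2ko replicate 1 it fell by 4.29 (edgeR adjusted p = 0.00131). Runx2ko against Runx2wt gave 1.00 (SE 0.93, edgeR adjusted p = 0.819) and, without that library, -0.81. The gene lies at chr1:194938819-194961279 on the plus strand, and its antisense neighbour Gm16897 had 4 counts over the 9 libraries. The promoter window is shown as that of the second member that fell in Runx2wt, and it holds none of the letters searched, so it has no capitals.
Cd34 chr1:194938571-194938870, plus strand: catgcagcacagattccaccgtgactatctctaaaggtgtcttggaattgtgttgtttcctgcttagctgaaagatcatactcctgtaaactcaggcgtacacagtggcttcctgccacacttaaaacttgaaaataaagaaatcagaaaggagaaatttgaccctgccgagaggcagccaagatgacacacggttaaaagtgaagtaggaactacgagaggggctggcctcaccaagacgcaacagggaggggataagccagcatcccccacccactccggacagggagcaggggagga

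Ly6a, the mouse stem cell antigen Sca-1, was at 115, 30.5 and 29.2 CPM in Runx2ko libraries and 10.1, 14.6 and 20.8 CPM in Runx2wt, against 54.9, 36.0 and 76.8 CPM in BM progenitor. All Runx2wt libraries were below all others, and Runx2ko overlapped BM progenitor, with replicate 1 above its range and replicates 2 and 3 below. No comparison passed. The log2 fold change was -1.89 in Runx2wt against BM progenitor (SE 0.56, edgeR adjusted p = 0.0537), just outside the threshold, and it passed in 7 of 16 alternatives, among them the fit without Runx2ko replicate 1 (edgeR adjusted p = 0.00132). In Runx2ko against Runx2wt it was 1.94 (SE 0.57, edgeR adjusted p = 0.579), with adjusted p between 0.0869 and 0.970 over the alternatives, and in Runx2ko against BM progenitor it was 0.05 (SE 0.53, edgeR adjusted p = 0.961). The Ly6 genes form a cluster of similar sequences, and reads may be shared among them. Ly6a lies at chr15:74994877-74998031 on the minus strand.

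Kit, the receptor for stem cell factor, passed in no comparison. It was at 52.0, 44.9 and 109 CPM in Runx2ko libraries and 40.5, 43.4 and 44.9 CPM in Runx2wt, against 72.9, 74.4 and 68.3 CPM in BM progenitor. Runx2wt lay below BM progenitor in all 3 libraries. Of the Runx2ko libraries, replicate 2 all but tied with the highest Runx2wt library, replicate 1 lay between the Runx2wt and BM progenitor ranges, and replicate 3 was the highest of all. The log2 fold change against BM progenitor was -0.07 in Runx2ko (SE 0.30, edgeR adjusted p = 0.900) and -0.74 in Runx2wt (SE 0.30, edgeR adjusted p = 0.123), and in Runx2ko against Runx2wt it was 0.68 (SE 0.30, edgeR adjusted p = 0.630). The value of Runx2wt against BM progenitor passed in 2 of 16 alternatives. Kit is itself a mast cell gene. Runx2ko replicate 1, with the highest mast cell sum, had a lower Kit value than Runx2ko replicate 3, whose mast cell sum was 508 CPM. The part of mast cells in the Kit values was not tested. Kit lies at chr5:75574916-75656722 on the plus strand.

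Flt3, the receptor of multipotent and lymphoid-primed progenitors, was almost absent from the transformed cells. Its counts were 2, 0 and 0 in Runx2ko and 2, 0 and 0 in Runx2wt, against 36, 38 and 36 in BM progenitor, where it was at 6.55, 10.2 and 7.62 CPM. In both transformed groups only replicate 1 had a tag. Summed over each group, Flt3 was 47.7-fold lower in Runx2ko (95% exact interval 12.9 to 399) and 49.5-fold lower in Runx2wt (13.4 to 414) than in BM progenitor, by counting error only. The log2 fold changes were -5.32 in Runx2ko (SE 1.03, edgeR adjusted p = 0.0119) and -5.48 in Runx2wt (SE 1.03, edgeR adjusted p = 0.0126), which passed in 14 and 12 of 16 alternatives. The other alternatives gave adjusted p of up to 0.0587 in Runx2ko and up to 0.0644 in Runx2wt. Without Runx2ko replicate 1, the Runx2ko arm had 0 counts, and Flt3 was at least 23.6-fold lower than in BM progenitor, against a floor of 3 counts over the 2 libraries. Its position is chr5:147330741-147400489 on the minus strand. The window below is shown as that of the third member that fell, and its capitals mark an E-box and, further on, an ETS match.
Flt3 chr5:147400440-147400739, minus strand: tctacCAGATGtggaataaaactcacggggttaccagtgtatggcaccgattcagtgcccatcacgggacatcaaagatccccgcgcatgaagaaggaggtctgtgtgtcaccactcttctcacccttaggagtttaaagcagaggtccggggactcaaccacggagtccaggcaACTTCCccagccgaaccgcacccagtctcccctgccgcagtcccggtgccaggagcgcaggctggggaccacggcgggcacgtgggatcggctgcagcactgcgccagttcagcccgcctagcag

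Windows were at hand for 7 of the 9 genes, 12 windows in all. None held the RUNX letters TGTGGT, which says only that these letters are not in these windows. An E-box also stood in a window of Mecom, and a GATA match and an E-box in a window of Erg.

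**Figure D2:**
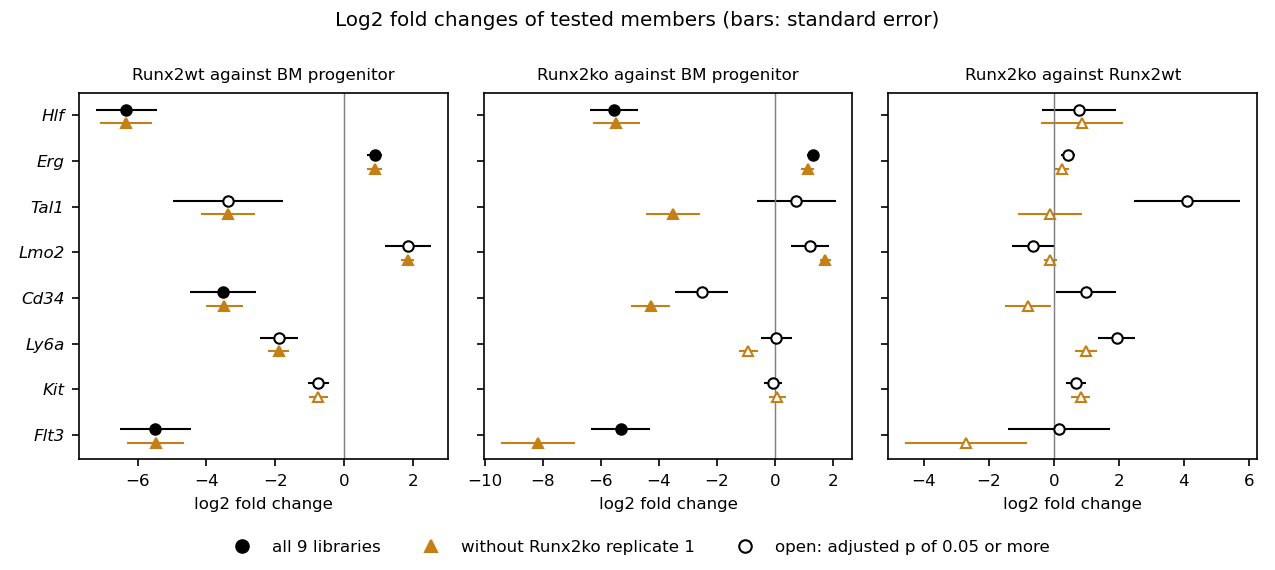
Log2 fold changes of the 8 tested genes in each of the 3 comparisons, with bars of 1 SE, from the fit over all 9 libraries (circles) and without Runx2ko replicate 1 (triangles); filled symbols have an adjusted p under 0.05. Hlf, Flt3 and Erg passed in both transformed groups against BM progenitor with and without that library. Tal1 in Runx2ko against BM progenitor was 0.74 with that library and -3.50 without it. The Flt3 value of -8.17, from the fit without that library, rests on 0 counts in Runx2ko and is no bound.

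The partners of Erg, Tal1 and Lmo2 were described from a list of 11 genes, all of them tested. In Runx2wt against BM progenitor, Runx1 fell and the other 10 did not pass, beside 8.28% of all tested genes higher and 5.23% lower. Runx1, the RUNX factor from which adult blood formation starts, was at 174, 107 and 132 CPM in Runx2ko libraries and 47.6, 74.6 and 54.9 CPM in Runx2wt, against 105, 119.8 and 145 CPM in BM progenitor. All Runx2wt libraries were the lowest, and Runx2ko and BM progenitor overlapped. Runx1 fell by 1.06 log2 units in Runx2wt against BM progenitor (SE 0.24, edgeR adjusted p = 0.0233). Its log2 fold change in Runx2ko against Runx2wt was 1.22 (SE 0.24), which did not pass with edgeR (adjusted p = 0.511) and passed with DESeq2 (adjusted p = 0.00664).

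In Runx2ko against BM progenitor, 2 of the 11 partners rose and none fell, beside 10.0% of all tested genes higher and 7.14% lower. Lyl1, the closest relative of Tal1, was at 108, 163 and 183 CPM in Runx2ko libraries and 125, 116 and 96.8 CPM in Runx2wt, against 86.2, 69.3 and 70.0 CPM in BM progenitor. It rose by 1.01 log2 units in Runx2ko (SE 0.22, edgeR adjusted p = 0.0169) and was at 0.58 in Runx2wt (edgeR adjusted p = 0.0982; 0.0217 with Runx2ko replicate 1 left out). Ssbp3, a single-stranded DNA binding protein that stabilises Ldb1, rose by 1.17 log2 units in Runx2ko (SE 0.28, edgeR adjusted p = 0.0235). The median of the 11 was 0.35 in Runx2ko and -0.10 in Runx2wt, each against BM progenitor, and 0.42 in Runx2ko against Runx2wt, where none passed. With Runx2ko replicate 1 left out, the medians were -0.05 in Runx2ko against BM progenitor and 0.02 in Runx2ko against Runx2wt.

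Gata2, Gata1 and Cbfa2t3 were spread like Tal1. Gata2, a stem and mast cell GATA factor, was at 563, 3.98 and 8.91 CPM in Runx2ko libraries and 22.7, 3.04 and 6.10 CPM in Runx2wt, against 113, 108 and 132 CPM in BM progenitor. Cbfa2t3 (ETO2), a corepressor in the Tal1 complex, was at 184, 7.96 and 8.91 CPM in Runx2ko libraries and 23.6, 6.90 and 3.61 CPM in Runx2wt, against 74.9, 80.6 and 82.9 CPM in BM progenitor. Gata1, the erythroid, megakaryocyte and mast cell GATA factor, was at 35.0, 0.379 and 0 CPM in Runx2ko libraries and 0.188, 0 and 0.277 CPM in Runx2wt, against 7.09, 8.60 and 11.6 CPM in BM progenitor. For each of them, Runx2ko replicate 1 was the highest library of all and the other 5 transformed libraries were below BM progenitor. None of the 3 passed over all libraries. With that library left out, all 3 fell in both transformed groups against BM progenitor: Gata2 was at -4.24 in Runx2ko and -3.40 in Runx2wt, Cbfa2t3 at -3.24 in Runx2ko and -2.74 in Runx2wt, and Gata1 at -5.22 in Runx2ko and -5.61 in Runx2wt (edgeR adjusted p at most 0.00222). That fit gave 2 partners higher and 3 lower of 11 in Runx2ko, and 2 higher and 4 lower in Runx2wt, against BM progenitor. Of all genes tested there, 15.9% rose and 12.6% fell in Runx2ko, and 15.9% rose and 12.1% fell in Runx2wt. None of the remaining partners passed over all libraries. In Runx2wt against BM progenitor Fli1, an ETS factor close to Erg, was at 0.11, the adaptor Ldb1 at -0.10, and the E proteins Tcf3 and Tcf12, which pair with Tal1, at -0.33 and 0.76, with Ssbp2 at 0.27 (edgeR adjusted p at least 0.0664). Tcf12 passed with Runx2ko replicate 1 left out (edgeR adjusted p = 0.0177), with only the compared libraries (edgeR adjusted p = 0.0149) and with DESeq2 (adjusted p = 0.0346).

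**Figure D3:**
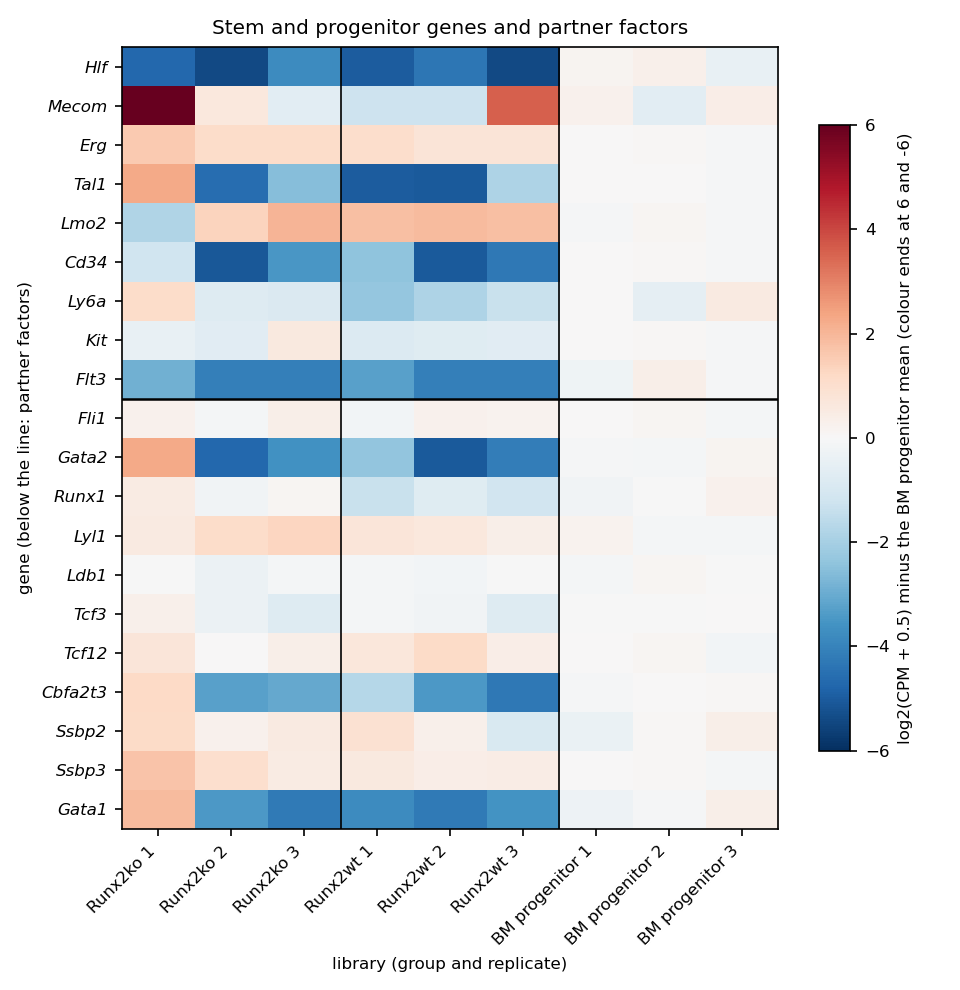
Log2(CPM + 0.5) minus the mean of BM progenitor, in colour, for the 9 genes (above the line) and 11 partner factors (below it), with libraries from left to right as Runx2ko, Runx2wt and BM progenitor. In Runx2ko replicate 1, Mecom, Tal1, Gata2, Cbfa2t3 and Gata1 were above BM progenitor and Lmo2 was below it; in Runx2ko replicates 2 and 3 Tal1, Gata2, Cbfa2t3 and Gata1 were below and Lmo2 above.

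A wider list of 89 stem and progenitor genes beyond the 9, the partners included, held 68 tested genes. Against BM progenitor, 12 rose and 3 fell in Runx2ko, and 9 rose and 6 fell in Runx2wt. Of all tested genes, 10.0% rose and 7.14% fell in Runx2ko, and 8.28% rose and 5.23% fell in Runx2wt. The median log2 fold change was 0.29 in Runx2ko and -0.02 in Runx2wt, and 0.29 in Runx2ko against Runx2wt, where none passed; it was the same with Cdkn1c, which had 0 counts in BM progenitor, set at its bound. With Runx2ko replicate 1 left out, 14 rose and 15 fell in Runx2ko, and 15 rose and 17 fell in Runx2wt, of 70 tested, where 15.9% of all genes rose and 12.6% fell in Runx2ko and 15.9% rose and 12.1% fell in Runx2wt. The medians were then 0.02 in Runx2ko against BM progenitor and 0.11 in Runx2ko against Runx2wt. Without any BM progenitor library in turn, 3 or 4 rose and 1 fell in Runx2ko, and 1 rose and 1 fell in Runx2wt; without any Runx2wt library in turn, 3 to 5 rose and 2 to 3 fell in Runx2wt.

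Among 13 tested stem cell transcription factors other than the members and partners, 3 rose in each transformed group against BM progenitor. Meis1, the homeobox cofactor of HOXA9, was at 264, 139 and 154 CPM in Runx2ko libraries and 182, 259 and 147 CPM in Runx2wt, against 26.5, 23.1 and 20.9 CPM in BM progenitor. It rose by 2.98 log2 units in Runx2ko (edgeR adjusted p = 0.0015) and by 3.05 in Runx2wt (edgeR adjusted p = 0.00124). Gfi1, a repressor that holds stem cells quiescent and drives granulocyte fate, rose by 1.80 in Runx2ko and 1.87 in Runx2wt. The third rise was Bmi1, a polycomb subunit named after its values were seen, with 0.59 in Runx2ko and 0.61 in Runx2wt. Runx2ko against Runx2wt gave -0.08 for Meis1, which did not pass (edgeR adjusted p = 0.957).

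Of 17 tested stem cell surface and state genes, 4 rose and none fell in Runx2ko, and 4 rose and 2 fell in Runx2wt, against BM progenitor. With Runx2ko replicate 1 left out, 4 rose and 6 fell in Runx2ko, and 4 rose and 7 fell in Runx2wt, of 18 tested. In Runx2ko these falls included Cd27 at -2.82 (edgeR adjusted p = 0.00384), named below. Cdkn1c (p57), a cell cycle inhibitor of quiescent stem cells, had 69 counts in Runx2ko and 26 in Runx2wt, against 0 in BM progenitor. It was at least 26.5-fold higher in Runx2ko and at least 9.62-fold higher in Runx2wt, against a floor of 3 counts over the group. Thy1, an antigen that mouse stem cells carry at a low level, was at 71.0, 127 and 54.0 CPM in Runx2ko libraries and 4.69, 36.2 and 12.8 CPM in Runx2wt, against 2.55, 4.03 and 3.17 CPM in BM progenitor. It rose by 4.70 log2 units in Runx2ko (edgeR adjusted p = 0.00554) and by 2.45 in Runx2wt (edgeR adjusted p = 0.0457), and Runx2ko against Runx2wt gave 2.25 (edgeR adjusted p = 0.579). Cd93, a surface lectin of progenitors, rose by 1.03 in Runx2ko and by 0.95 in Runx2wt. In Runx2ko, Ifitm1, an interferon-induced membrane protein named after its values were seen, was the fourth, at 0.99. Cd9, a tetraspanin likewise named, rose in Runx2wt by 1.31. Cd27, a TNF receptor family member of stem and lymphoid-primed cells, fell in Runx2wt by 4.45, and Eng, a TGF-beta co-receptor, fell by 2.75. Some stem cell genes of this list were hardly detected, with Slamf1 at 0 to 1.93 CPM and Tek, Fgd5 and Ndn at 0 to 0.190 CPM over the 9 libraries. Others were detected in BM progenitor, with Adgrg1 at 119.8 to 134 CPM, Angpt1 at 32.8 to 44.1 CPM, Procr at 2.33 to 4.91 CPM and Esam at 1.82 to 2.69 CPM. None of these passed over all libraries, where Esam was not tested because it did not pass the filter on low counts. With Runx2ko replicate 1 left out, Adgrg1 was at -3.22 in Runx2ko and -4.03 in Runx2wt against BM progenitor. Angpt1 was then at -4.67 in Runx2ko and -5.24 in Runx2wt (edgeR adjusted p at most 0.00131 for both genes). Esam also passed as lower in both groups, and its 0 counts in Runx2wt put it at least 9.6-fold lower there. Procr did not pass. These genes were named after their values were seen.

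Of 7 tested lymphoid priming genes, Ccr9, a chemokine receptor of thymus-seeding progenitors, was the sole gene to pass. It fell by 4.17 log2 units in Runx2ko and by 5.31 in Runx2wt, alongside Flt3. Dntt, the terminal transferase of early lymphoid cells, was at 0.190 to 0.321 CPM in Runx2ko and 0 to 0.276 CPM in Runx2wt, against 1.82 to 2.96 CPM in BM progenitor, and did not pass the filter. Of 13 tested genes of Kit and Flt3 signalling, Gab2, an adaptor below both receptors, rose by 1.26 in Runx2ko, and Pik3r1, a regulatory subunit of PI3 kinase, rose by 0.80 in Runx2wt. A fit that left out Runx2ko replicate 1 added the kinase Lyn in both groups and the kinase Src in Runx2wt, both named after their values were seen. Kitl, the ligand of Kit, was at 0 CPM in all transformed libraries and at 0.182 to 0.269 CPM in BM progenitor. Of the PAR-type relatives of Hlf, Tef rose by 1.31 in Runx2ko and was at 0.79 in Runx2wt, where it did not pass (edgeR adjusted p = 0.138; 0.0370 with Runx2ko replicate 1 left out). Of the Ly6 relatives, Ly6g rose by 5.78 in Runx2ko and 3.78 in Runx2wt, and Ly6d, a lymphoid progenitor antigen, fell by 4.46 in Runx2ko and 4.41 in Runx2wt. Neither tested ETS relative of Erg passed over all libraries, and Ets2 was at 0.33 in Runx2ko and 0.69 in Runx2wt. With Runx2ko replicate 1 left out, the other relative, Ets1, rose by 1.17 in Runx2ko (edgeR adjusted p = 0.00601) and by 0.67 in Runx2wt (edgeR adjusted p = 0.0477). Between Runx2ko and Runx2wt, where none of these lists had a passing gene, the log2 fold changes of their most abundant members were 0.09 for Myb, 0.93 for Ifitm1, 0.14 for Ikzf1, -0.39 for Lyn, 0.52 for Tef, -0.29 for Ly6c2 and -0.36 for Ets2. Of these, DESeq2 called Ifitm1 (0.93, DESeq2 adjusted p = 0.0119).

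The lineage markers moved between the groups as well. Eosinophil markers (3 genes) summed to 4.93 to 16.7 CPM in Runx2ko and 0.563 to 2.77 CPM in Runx2wt, against 1258 to 1680 CPM in BM progenitor, with Epx at 0 in all Runx2wt libraries. Neutrophil markers (6 genes, none at 0 throughout a group) summed to 115 to 2447 CPM in Runx2ko and 499 to 1571 CPM in Runx2wt, against 4663 to 6524 CPM in BM progenitor. Monocyte and macrophage markers (6 genes, none at 0 throughout a group) summed to 105 to 472 CPM in Runx2ko and 305 to 587 CPM in Runx2wt, against 240 to 273 CPM in BM progenitor. As sums, granulocyte markers were thus high in the same libraries as Hlf, Cd34 and Flt3. Of the 6 neutrophil genes, 3 passed as lower in each transformed group, beside 7.14% of all tested genes in Runx2ko and 5.23% in Runx2wt. With Runx2ko replicate 1 left out, 3 fell in Runx2ko and 5 in Runx2wt, beside 12.6% and 12.1% of all genes. Elane at -0.08, Prtn3 at -0.49 and Ngp at -1.495 did not pass there in Runx2ko. The part of granulocytes and monocytes in the differences between transformed and BM progenitor libraries was not tested. Among the mast cell and basophil genes, Cpa3 was at 1988 CPM in Runx2ko replicate 1 and 10.5 to 174 CPM in the other transformed libraries, against 63.7 to 93.8 CPM in BM progenitor. Mcpt8, a basophil protease, was at 304 CPM in that library and 1.66 to 8.64 CPM in the other transformed libraries, against 343 to 411 CPM in BM progenitor. Of the 11 tested genes of this list, 1 rose and 4 fell in Runx2wt, and 2 rose and 0 fell in Runx2ko. Of all tested genes, 8.28% rose and 5.23% fell in Runx2wt, and 10.0% and 7.14% in Runx2ko. With Runx2ko replicate 1 left out, 2 rose and 7 fell in Runx2wt, beside 15.9% and 12.1% of all genes. That fit gave 2 higher and 6 lower in Runx2ko, beside 15.9% and 12.6%. Its falls included Prss34, Hdc, Ms4a2 and Slc18a2 in both groups. Tpsb2, Tpsab1 and Mcpt4, proteases of mast cells, were at 0 in all BM progenitor libraries. Summed over each group, Tpsb2 had 959 counts in Runx2ko and 325 in Runx2wt, Tpsab1 16 and 0, and Mcpt4 14 and 7. Against a floor of 3 counts, Tpsb2 was at least 369-fold higher in Runx2ko and at least 120-fold higher in Runx2wt than in BM progenitor.

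**Figure D4:**
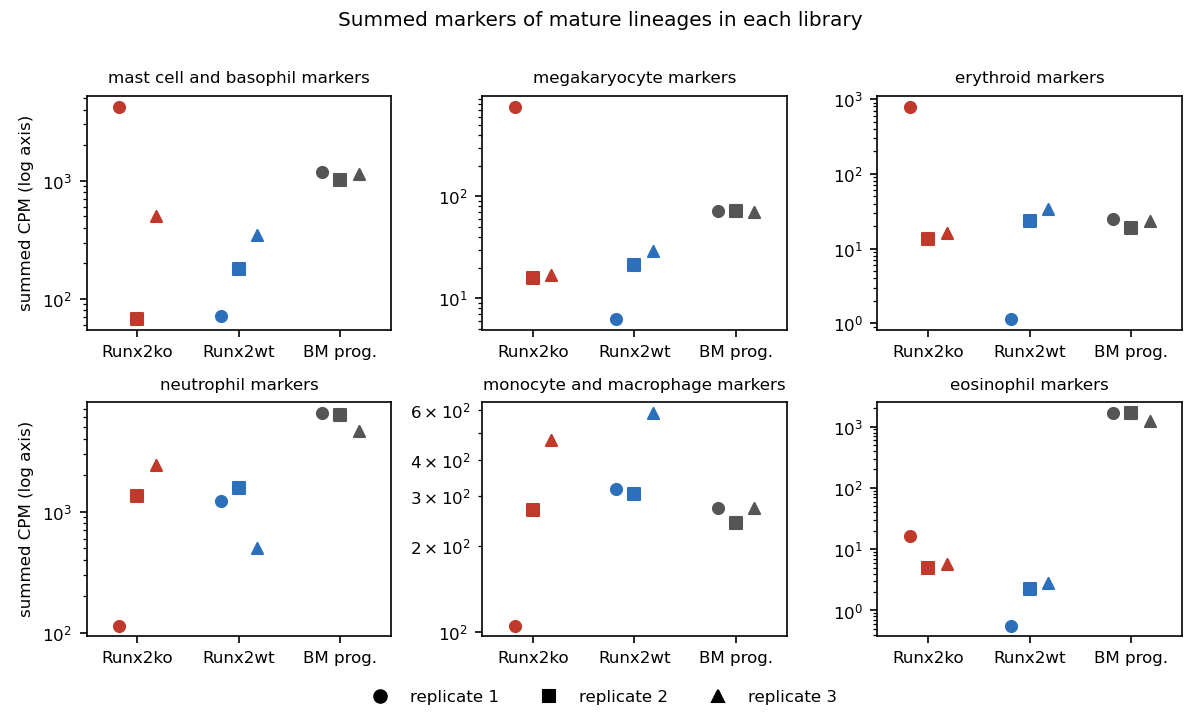
Summed CPM of marker lists of 6 mature lineages on a log axis, 1 point per library, shaped by replicate number. Runx2ko replicate 1 was the highest library for mast cell and basophil (4244 CPM), megakaryocyte (763 CPM) and erythroid (798 CPM) markers and the lowest for neutrophil and monocyte markers, while eosinophil markers were high in BM progenitor alone.

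For each tested member, the genes with the most similar pattern over the 9 libraries were found by Pearson's r of log2 CPM. These r values describe libraries that share groups and depth, and they carry no test. Hlf was closest to Fcnb, a ficolin (r = 0.985, at 0 to 0.270 CPM in transformed and 28.1 to 52.6 CPM in BM progenitor libraries), and Flt3 to Txnrd1, a thioredoxin reductase (r = 0.988). Cd34 was closest to Baiap2 (0.978) over all libraries. Over the 8 libraries without Runx2ko replicate 1 it was closest to Gata2 (0.997). Tal1 was closest to Slc45a3 both with that library (0.990) and without it (0.986). Lmo2 was closest to Mpp1 (0.994), Erg to Glrp1 (0.988), Ly6a to Ttc28 (0.955) and Kit to Hspa5, an endoplasmic reticulum chaperone (0.960). Among the members themselves, Hlf and Flt3 had the highest r of all pairs (0.946), and Ly6a and Lmo2 the lowest (-0.886). Without Runx2ko replicate 1 these were 0.958 and -0.820, and the lowest was then that of Flt3 and Lmo2 (-0.959).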

How the data were processed

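RNA of 9 mouse libraries was counted by QuantSeq. Raw counts by Ensembl gene and a normalized table were deposited by the authors; the normalized values equal the counts divided by 1 constant per library. The submitters' processing notes name STAR, FastQC, DESeq2 and GRCm38. Versions, the counting program and whether it used strand: not given in the sources used here, so overlapping genes may share reads. Symbols came from GENCODE for GRCm38 and matched 21042 of 21159 identifiers; 1188 genes had no count.

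Tests on these counts used edgeR 4.0.16, under R 4.3.3 (quasi-likelihood F-test, TMM factors, filterByExpr, 11196 genes, 1 estimate of the spread from all 9 libraries); SE came from the F statistic. CPM used TMM-scaled library sizes, and 3 counts equal 0.546 to 0.964 CPM. Alternatives were size factors (RLE), no filter on low counts, DESeq2 1.42.0, limma-voom (limma 3.58.1), only the compared libraries, a replicate block, the authors' normalized values as log2(value + 1), and leaving out each library. Libraries of a group differed beyond sampling noise (chi-square per gene).

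The members and lists were chosen with earlier results of these data known. Named were all members and partners, up to 3 passing genes with the largest change per other list (or the most abundant where none passed), the most abundant lineage markers, and, per member, the genes with the most similar pattern. Some genes that this rule names are not reported here.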

Additional observations from a re-analysis of the deposited data

How the results depend on the processing

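Over 16 alternatives, the falls of Hlf in both transformed groups and the rise of Erg in Runx2ko, all against BM progenitor, passed in every setting. Other counts moved with the setting. In Runx2wt against BM progenitor, members that rose (1 in the report) were 0 with no filter on low counts and 0 with the replicate block, and 2 with DESeq2 and with only the compared libraries. Members that fell were 6, wider-list genes that rose 16 and wider-list genes that fell 16 with only the compared libraries. In Runx2ko against Runx2wt, DESeq2 called 2 wider-list genes as higher. Leaving out each library in turn, Runx2wt against BM progenitor gave 0 to 2 members higher, 1 to 5 lower, 1 to 15 wider-list genes higher and 1 to 17 lower. Runx2ko against BM progenitor gave 1 to 2 members higher, 1 to 4 lower, 3 to 14 wider-list genes higher and 1 to 15 lower, and Runx2ko against Runx2wt gave 0 throughout. Each fit without a BM progenitor library gave 1 member lower in Runx2wt (Hlf). The causes were not tested.

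Values that changed sign did not pass unless stated. Over the fits that leave out 1 library, Runx2ko against Runx2wt ranged from -0.82 (without Runx2ko replicate 3) to 1.73 for Hlf, and, with the lowest value without Runx2ko replicate 1, from -0.81 to 2.32 for Cd34, from -2.70 to 2.77 for Flt3 and from -0.12 to 6.59 for Tal1; Flt3 was also at -0.25 and -0.26 without Runx2wt replicates 2 and 3. Runx2ko against BM progenitor ranged from -0.57 to 0.17 for Kit (0.09 and 0.17 without Runx2ko replicates 1 and 2), from -0.91 to 0.36 for Ly6a and from -3.50 to 1.29 for Tal1. Ly6a was there -0.28 with limma-voom, -0.040 with the replicate block, -0.20 with the authors' normalized values, -0.91 without Runx2ko replicate 1 and -0.19 without BM progenitor replicate 2. Tal1 was -2.30, -0.80 and -1.74 with limma-voom, the block and the normalized values, and -3.50 without Runx2ko replicate 1, which passed (edgeR adjusted p = 0.0169).

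Replicate numbers share only a number: same-numbered libraries correlated at -0.066 to 0.072 in their deviations. The replicate block gave 0 members higher in Runx2wt and 1 higher and 3 lower in Runx2ko, against BM progenitor, and 0 in Runx2ko against Runx2wt; Erg in Runx2wt missed the threshold (edgeR adjusted p = 0.0535). Depth limits Hlf, Flt3 and Mecom, whose transformed libraries mostly held 0 to 7 counts.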
